A study of Mus musculus with 42 samples.

Results

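The 9 genes described here bind, make or break down retinoic acid, the active derivative of vitamin A: Rdh10, Aldh1a1, Aldh1a2, Aldh1a3, Dhrs3, Cyp26a1, Crabp1, Crabp2 and Rarb. They were selected by symbol from a table of 53465 mouse genes, with their read counts in these same libraries already known, so their levels and fold changes are given as a description and carry no p-value. RNA came from thymic epithelium of the mouse, the stroma on which T cells mature, sorted as Epcam+ CD45- cells into 3 subsets. Cortical cells (cTEC) were UEA- Ly51+, and medullary cells (mTEC) were UEA+ Ly51lo and split by their surface MHC class II into MHCII-low and MHCII-high mTEC. Each subset had libraries labelled Control, KO and Ski flox Control, where KO refers to deletion of Ski, a transcriptional corepressor, in thymic epithelial cells, so the design allows subsets to be compared within a genotype and genotypes within a subset. The labels name neither the Cre driver nor the alleles of the Control libraries, nor the age or any pooling of the animals.

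Retinol taken up by a cell is first oxidised to retinal, a reversible step that Rdh10 drives forward and Dhrs3 drives back. The retinaldehyde dehydrogenases Aldh1a1, Aldh1a2 and Aldh1a3 then convert retinal to retinoic acid irreversibly, and Cyp26a1 clears retinoic acid by hydroxylation. Crabp1 and Crabp2 are small cytosolic proteins that bind retinoic acid, Crabp2 being known for delivering it to the nuclear receptors. Rarb is one of those receptors. Cyp26a1, Rarb, Dhrs3 and Crabp2 are themselves known as genes that retinoic acid induces in many cell types, and retinoic acid signalling is known to influence the growth and maturation of thymic epithelium.

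Every library was made from 200 cells, and 40 libraries holding 3217251 to 7068077 counts were used: 5 Control, 7 KO and 2 Ski flox Control libraries of cTEC, and 4, 7 and 2 of each medullary subset. A Control library of MHCII-low mTEC with 82 counts and one of MHCII-high mTEC with 41828 counts fell under the minimum of 100000 and were left out; the latter held 20 Crabp1, 12 Rdh10 and 2 Cyp26a1 counts. Which animal each library came from is not labelled, and p-values therefore measure the spread between libraries, which may be partly technical. Earlier work on these libraries split them by library number into an early set (19 used) and a late set (21 used, all 6 Ski flox Control libraries among them), and values within each set are given where they differ. The labels name no batch, and the boundary was placed after correlations between the libraries had been seen. Levels are in CPM, a gene's counts scaled to the counts of its library. The thymoproteasome gene Psmb11, a cortical marker, ranged from 6.51 to 1962 CPM in cTEC and reached at most 52.0 in medullary libraries. Aire, a medullary marker, ranged from 279 to 1411 CPM in MHCII-high mTEC, from 4.06 to 510 in MHCII-low mTEC and from 0 to 119.7 in cTEC. Each is a single gene from a list of 10. The cortical list summed to 579.6 to 22840 CPM in cTEC, 462 to 3250 in MHCII-low and 490.1 to 3337 in MHCII-high mTEC. The medullary list summed to 148.5 to 461.4, 335.2 to 2233 and 1520 to 3561 CPM in the same order. Cd80 of that list overlapped between all subsets (0 to 90.31, 4.174 to 141.3 and 4.553 to 114.3 CPM). Ccl21a, with 15 counts over the 40 libraries, had none in MHCII-high mTEC. Ski itself did not separate the labels in cTEC (0 to 42.2 CPM in libraries labelled KO, 3.36 to 27.2 in Control). Its level also overlapped between these labels in MHCII-low mTEC (0.523 to 16.9 against 7.83 to 44.5 CPM) and MHCII-high mTEC (0 to 16.9 against 8.21 to 23.0), so KO below means a library labelled KO.

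A retinoic acid receptor bound to its partner recognises 2 short repeats in a row, and a spacing of 5 bases (a DR5) is the classic arrangement, so promoters were searched for it. Each repeat could be AGGTCA or else AGTTCA or else GGGTCA or else GGTTCA, on both strands, with spacers of 1, 2 or 5 bases. RefSeq (GRCm38.p6) held promoters, 250 bases before to 50 after the start, for 6 of the 9 genes: Crabp1, Cyp26a1, Aldh1a1, Aldh1a2, Dhrs3 and Rarb. A DR5 was present in 32 of 32851 promoters of all genes (0.0974%), or 31 of 27025 genes (0.115%), and Cyp26a1 and Rarb were among them. Repeats with a 1-base spacer were in 0.222% of all promoters and with a 2-base spacer in 0.268%, and in none of the 6 genes. The 250 bases before the start are shown for these DR5 genes and, because its level went with that of Cyp26a1 across the libraries, for Crabp1, whose 300-base window held none of the repeats. Capitals mark the DR5, which lies 32 to 16 bases before the start in Cyp26a1 (chr19:37697558-37697807, plus strand; repeat read on the opposite strand) and 53 to 37 before it in Rarb (chr14:16575477-16575726, minus strand). The Crabp1 stretch is chr9:54764498-54764747, plus strand. The starts are those of the promoter entries and can differ from the annotated gene bounds. The Rarb gene spans 16430839 to 16819156, so the start used for it lies inside the gene. The Cyp26a1 stretch ends at 37697807, past the annotated gene start of 37697798. A match is a stretch of letters and does not show binding. Cyp26a1 and Rarb were known as genes that retinoic acid induces before the search. Their matches are therefore a description, and no enrichment was tested.
Cyp26a1: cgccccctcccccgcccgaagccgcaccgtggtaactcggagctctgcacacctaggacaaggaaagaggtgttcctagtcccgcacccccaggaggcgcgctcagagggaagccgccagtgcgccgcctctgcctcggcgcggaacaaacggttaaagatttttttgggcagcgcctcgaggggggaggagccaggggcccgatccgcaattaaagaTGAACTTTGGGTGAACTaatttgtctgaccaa
Rarb: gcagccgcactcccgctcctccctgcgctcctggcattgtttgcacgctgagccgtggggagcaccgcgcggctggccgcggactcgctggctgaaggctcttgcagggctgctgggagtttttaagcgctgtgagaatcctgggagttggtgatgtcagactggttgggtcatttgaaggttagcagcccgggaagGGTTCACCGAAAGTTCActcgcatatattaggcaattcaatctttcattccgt
Crabp1: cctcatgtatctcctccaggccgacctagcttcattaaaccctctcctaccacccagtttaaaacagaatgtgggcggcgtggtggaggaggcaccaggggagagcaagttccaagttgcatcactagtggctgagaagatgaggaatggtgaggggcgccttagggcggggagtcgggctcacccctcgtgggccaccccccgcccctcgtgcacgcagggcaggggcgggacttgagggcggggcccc

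The clearest pattern concerned Crabp1 and Cyp26a1, which had no count in any of the 14 cTEC libraries and were present in nearly all MHCII-high mTEC libraries. A total of 0 over the cTEC libraries allows a mean of up to 0.03995 CPM (3 counts over their summed sizes, counting error only, as the reads carry no molecular identifiers). Crabp1 (ENSMUSG00000032291, chromosome 9, 54764748 to 54773110, plus strand, 4 exon blocks) was at 71.7, 1346, 218 and 300.4 CPM in the 4 Control libraries of MHCII-high mTEC. The 7 KO libraries of that subset ran from 10.99 to 337 with a median of 216, and the Ski flox Control libraries were at 8.54 and 244. All 13 MHCII-high libraries therefore lay above all 14 cTEC libraries. Between them, MHCII-low mTEC was uneven: the Control libraries were at 2.21, 257, 0 and 0 CPM, the Ski flox Control libraries at 4.14 and 0, and the KO libraries ran from 0 to 788 with a median of 3.69. A single KO library, replicate 3, held 65.5% of the summed Crabp1 level of the 13 MHCII-low libraries.

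Cyp26a1 (ENSMUSG00000024987, chromosome 19, 37697798 to 37701536, plus strand, 6 exon blocks) was at 186, 68.8, 105 and 0 CPM in MHCII-high Control libraries and at 104 and 101 in Ski flox Control libraries. The KO libraries of MHCII-high mTEC all had it, from 14.1 to 579 with a median of 52.9. Among MHCII-low libraries it was at 0 in all 4 Control and both Ski flox Control libraries, and 4 of 7 KO libraries had counts (64.8, 29.3, 52.4 and 0.839 CPM, the other 3 at 0). The 3 higher values of these all came from the early set, whose 2 MHCII-low Control libraries were at 0, while in the late set the KO libraries were at 0.839, 0 and 0.

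**Figure D1:**
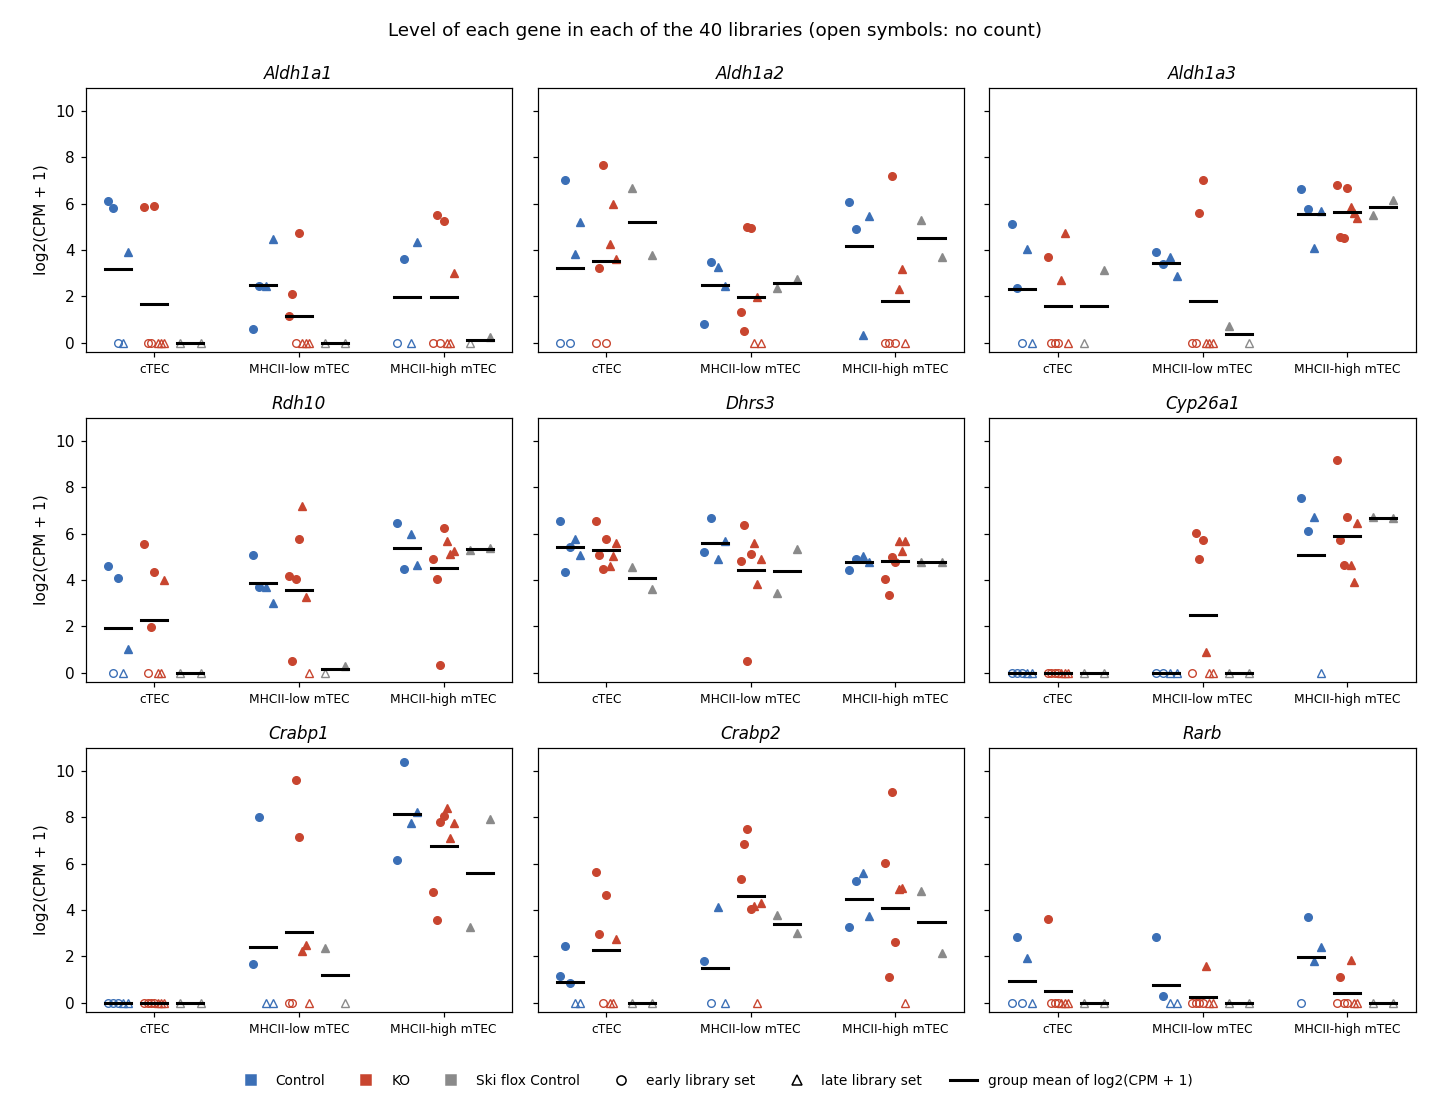
Each panel plots one gene, with log2(CPM + 1) on the vertical axis and the 3 subsets on the horizontal axis; each symbol is a library, coloured by genotype and shaped by library set, open symbols have no count and bars are group means. Crabp1 and Cyp26a1 have only open symbols in cTEC and reach 1346 and 579 CPM in MHCII-high mTEC, whereas Dhrs3 has a count in every library.

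Because one side had no counts, these folds divide the other group's mean by a floor of 3 counts over the group without counts. They are lower bounds for counting error only. The spread between libraries does not enter, so they are not minimum effects. The values without a library or within a set show how far they move. The same holds for every later fold given as a bound or as at least a value. Crabp1 was at least 4800-fold higher in MHCII-high than in cTEC Control libraries (4670 within the early set, 861 within the late set, and 1950 without MHCII-high Control replicate 3), and at least 2000-fold higher among KO libraries (857 and 1150 within the sets). For Cyp26a1 the bounds were 891-fold among Control libraries (838 early, 175 late, 575 without replicate 1) and 1460-fold among KO libraries (1240 early, 210 late, 588 without KO replicate 1). In Control libraries MHCII-low mTEC had at least 643-fold more Crabp1 than cTEC, but 7.30-fold without MHCII-low Control replicate 3, which held nearly all of it. Among KO libraries that bound was 1540-fold (291 without replicate 3, 1520 early, 13.7 late) for Crabp1 and 242-fold for Cyp26a1 (158 without replicate 2, 239 early, 1.39 late). Cyp26a1 was at least 495-fold higher in MHCII-high than in MHCII-low Control libraries (360 early, 141 late, 319 without MHCII-high replicate 1).

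In the fit across all 23040 genes (edgeR quasi-likelihood test, adjusted p under 0.05) both were called higher in MHCII-high mTEC than in cTEC among Control libraries, where 1.11% of all genes were called, and among KO libraries, where 14.7% were. Both were also called between MHCII-low mTEC and cTEC among KO libraries, against 5.68% of all genes, and neither was among Control libraries, against 0.773%. Nothing is read from these calls, since the same counts chose the genes. The call of both genes among Control libraries was lost when any one of 8 of the 9 libraries was left out, all but MHCII-high Control replicate 5; the KO calls held in all 14 such refits. No gene of the 9 was called between the medullary subsets, where 0.0% of genes were called in Control and 0.0174% in KO libraries. In that Control comparison 1720 genes had an unadjusted p under 0.05, DESeq2 called 201 genes and limma voom 79, and both of these called Cyp26a1.

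**Figure D2:**
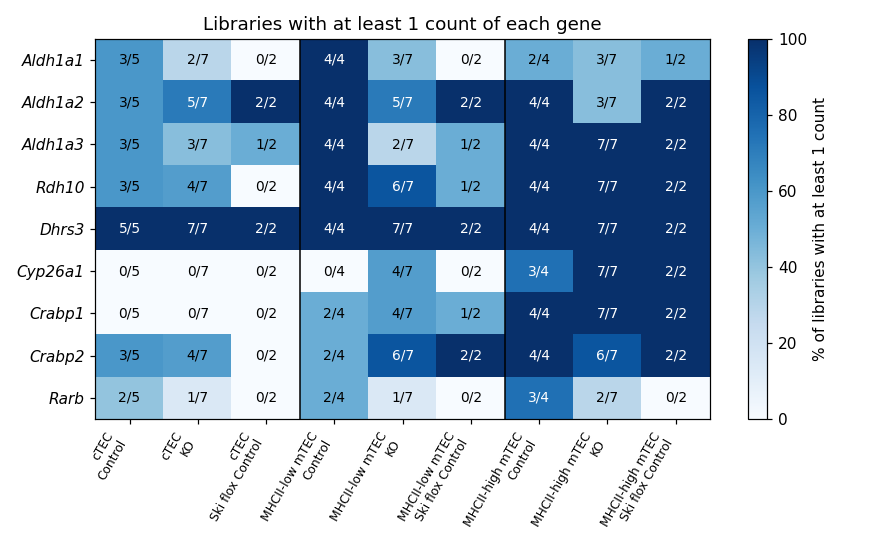
Each cell gives the number of libraries with at least 1 count out of all libraries of that group, shaded by the percentage, for the 9 genes (rows) in the 9 groups (columns). Crabp1 and Cyp26a1 read 0/5, 0/7 and 0/2 in cTEC, and Dhrs3 was counted in all libraries of every group.

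Other measures moved with these subsets. Genes with any count numbered, as a median, 14436 in cTEC, 16993 in MHCII-low and 19040 in MHCII-high mTEC. The summed level of 7 mesothelial markers ranged from 0 to 80.8 CPM in cTEC (5 of 7 detected, Wt1 and Lrrn4 at 0), from 0.4185 to 1403 in MHCII-low mTEC (7 of 7) and from 101 to 429 in MHCII-high mTEC (6 of 7, Wt1 at 0). That of 7 pericyte and smooth muscle markers ranged from 2.60 to 168, from 20.9 to 872 and from 124 to 792 CPM, with 7 of 7 detected in each subset. A few genes set most of both sums. Over the 40 libraries Msln had 31333 counts of the mesothelial list and no other gene of it more than 1811. In the pericyte and smooth muscle list Rgs5 had 22705, Acta2 15161 and Myh11 7821 counts, and no other gene more than 589. The 10 thymic tuft cell markers summed to a median of 29.6 CPM in cTEC (8.50 to 371), 2043 in MHCII-low mTEC (273 to 7355) and 790.3 in MHCII-high mTEC (98.9 to 3158). Those of keratinocyte-like medullary cells had medians of 18.5, 200.3 and 255 CPM, and those of ciliated-like cells 42.6, 246 and 217. The 10 thymocyte markers went the other way, with medians of 1635 (201 to 3949), 1153 (70.8 to 2716) and 461 CPM (11.8 to 1092). All genes of these lists were detected in each subset except the keratinocyte gene Ivl, at 0 in cTEC. The part of these measures in the results was not tested. Since these are bulk samples, fewer cells expressing a gene and less RNA per cell cannot be told apart.

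Among the enzymes that make retinoic acid, Aldh1a3 and Rdh10 had counts in all 13 MHCII-high libraries and were patchy elsewhere. Aldh1a3 (ENSMUSG00000015134, chromosome 7, 66390890 to 66427517, minus strand) was at 97.5, 53.4, 16.2 and 49.97 CPM in MHCII-high Control libraries, from 22.2 to 111 with a median of 47.3 in KO libraries and at 45.2 and 71.4 in Ski flox Control libraries. MHCII-low Control libraries were at 14.0, 9.49, 11.95 and 6.26, all below the MHCII-high ones, but 2 of 7 MHCII-low KO libraries, both early, were at 48.2 and 130.4 and the other 5 at 0. In cTEC the values were 34.1, 4.10, 0, 15.5 and 0 in Control, 0 to 25.9 (median 0) in KO and 0 and 7.94 in Ski flox Control libraries, so cTEC and MHCII-high libraries overlapped between 16.2 and 34.1 CPM. The fitted log2 fold change of MHCII-high over cTEC was 2.33 (SE 1.88) in Control and 3.21 (SE 1.59) in KO libraries.

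Rdh10 (ENSMUSG00000025921, chromosome 1, 16105774 to 16133734, plus strand) was at 87.9, 21.2, 62.0 and 24.4 CPM in MHCII-high Control libraries, 0.267 to 74.9 (median 34.4) in KO and 38.5 and 41.3 in Ski flox Control libraries. MHCII-low Control libraries were at 32.7, 11.98, 11.95 and 7.04 CPM, KO libraries ran from 0 to 146 (median 15.6), and the Ski flox Control libraries were at 0 and 0.230. In cTEC it was at 23.6, 0, 15.8, 0 and 1.06 in Control, 0 to 45.7 (median 2.99) in KO and 0 in both Ski flox Control libraries. The subsets overlapped, and the log2 fold change of MHCII-high over cTEC was 2.59 (SE 1.62) in Control and 1.54 (SE 1.28) in KO libraries.

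Aldh1a2 (ENSMUSG00000013584, chromosome 9, 71215789 to 71296243, plus strand) overlapped widely between the subsets. The cTEC Control libraries were at 0, 129.8, 0, 13.2 and 35.95 CPM, the KO libraries ran from 0 to 206 with a median of 11.4, and the Ski flox Control libraries were at 101 and 12.8. MHCII-low libraries stayed lower, at 0.737, 10.2, 8.61 and 4.43 in Control, 0 to 31.2 (median 1.54) in KO and 4.14 and 5.75 in Ski flox Control libraries. In MHCII-high mTEC the Control libraries were at 66.0, 29.0, 0.253 and 43.7, the Ski flox Control libraries at 38.1 and 12.1, and 4 of 7 KO libraries at 0 with 1 at 145. The log2 fold change of KO over Control there was -0.64 (SE 1.83), and ranged from -4.09 to -0.12 over the refits. MHCII-high over cTEC had a log2 fold change of -0.04 (SE 1.99) in Control and -0.97 (SE 1.60) in KO libraries. MHCII-low over cTEC had one of -2.57 (SE 2.17) in Control and -2.21 (SE 1.66) in KO libraries, with limma voom giving 0.45 in Control.

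Aldh1a1 (ENSMUSG00000053279, chromosome 19, 20492715 to 20643465, plus strand) was sporadic, with counts in 18 of 40 libraries. Its highest values were in cTEC, at 68.5, 55.3, 0, 0 and 14.2 CPM in Control and at 56.4 and 58.7 in 2 of 7 KO libraries, the other 5 being at 0. The 13 mesenchyme and fibroblast markers, all of them detected in cTEC, summed to 2876 CPM in the Control library at 68.5 and to 6552 in the KO library at 56.4, but to 856 and 139.6 in those at 55.3 and 58.7, within a range of 21.8 to 6552 over cTEC. Over the 40 libraries Dcn had 50623 counts of that list and no other gene of it more than 7943. The part of other cells in these Aldh1a1 values was not tested. Of the 6 Ski flox Control libraries, 5 had no Aldh1a1 count and 1 had a single count. Its close paralogue Aldh1a7 had no count in any cTEC library, including the 4 with 259 to 414 Aldh1a1 counts.

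Dhrs3 (ENSMUSG00000066026, chromosome 4, 144892827 to 144928209, plus strand), which returns retinal to retinol, was the steadiest of the 9 and had counts in all 40 libraries. Its median was 33.1 CPM in cTEC (range 11.3 to 93.3), 33.9 in MHCII-low mTEC (0.4155 to 101) and 26.7 in MHCII-high mTEC (9.21 to 51.3). The subsets overlapped throughout. Its log2 fold change of MHCII-high over cTEC was -0.84 (SE 0.71) in Control and -0.46 (SE 0.56) in KO libraries, and these standard errors were the smallest of the 9 genes.

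Crabp2 (ENSMUSG00000004885, chromosome 3, 87948666 to 87953376, plus strand) was low in cTEC Control libraries, at 1.23, 4.54, 0.827, 0 and 0 CPM, and at 0 in both Ski flox Control libraries, while 4 of 7 KO libraries had 49.2, 6.94, 24.1 and 5.70. MHCII-low Control libraries were at 2.46, 0, 16.7 and 0 and the Ski flox Control libraries at 12.8 and 7.14, while KO libraries ran from 0 to 183 with a median of 18.8. MHCII-high Control libraries were at 8.76, 37.8, 47.3 and 12.5, the Ski flox Control libraries at 27.7 and 3.38, and KO libraries ran from 0 to 545 with a median of 29.1. KO and Control libraries thus overlapped in every subset.

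Crabp2 was the one gene of the 9 whose fitted level was higher in KO than in Control in all 3 subsets by more than 1 on the log2 scale, at 3.18 (SE 1.73) in cTEC, 3.52 (SE 1.92) in MHCII-low and 1.86 (SE 1.74) in MHCII-high mTEC. These higher values lay mainly in the early set, where the mean was 20.1 CPM in KO against 2.20 in Control for cTEC, 87.8 against 1.23 for MHCII-low mTEC and 154 against 23.3 for MHCII-high mTEC. Late means were 1.90 against 0, 11.98 against 8.37 and 19.9 against 29.9, so the direction turned in late MHCII-high libraries. It also turned there without KO replicate 3, the library at 545 CPM, to a log2 fold change of -0.28, and with limma voom, to -1.04. In cTEC the highest Crabp2 value, 49.2, was in the KO library with the highest sum of mesenchyme markers (6552 CPM, 13 of 13 detected in cTEC KO), whose part was not tested.

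**Figure D3:**
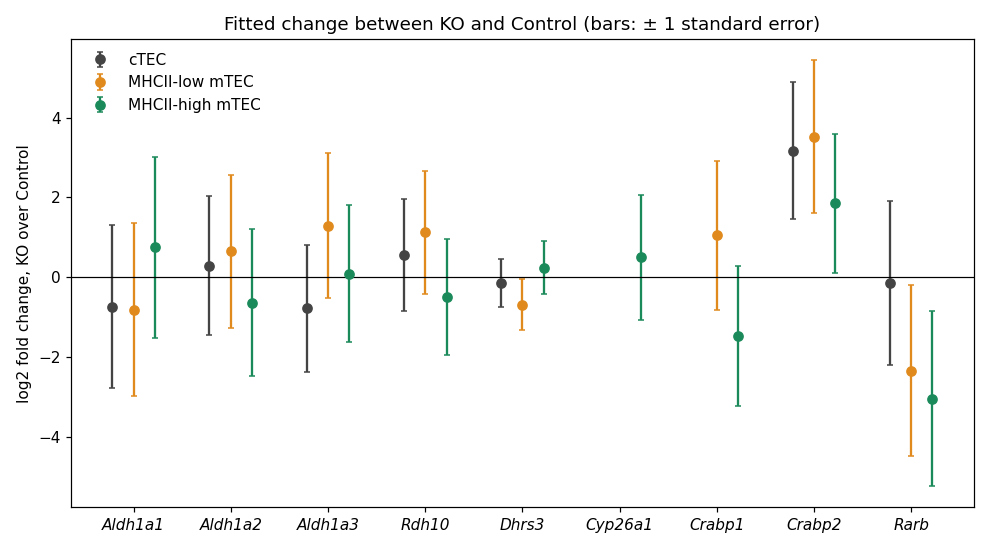
Points are edgeR log2 fold changes of KO over Control for each gene (horizontal axis) in each subset (colour), with bars of 1 standard error; a comparison in which a group had no count at all is left out. Most bars cross 0, and the 3 Crabp2 points, at 3.18, 3.52 and 1.86, lie above 0.

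For no gene of the 9 was the difference between KO and Control called in any subset, and 0.0% of all genes were called in cTEC, 0.0% in MHCII-low and 0.0% in MHCII-high mTEC. At an unadjusted p under 0.05 there were 2443, 1639 and 1586 genes, DESeq2 called 520, 229 and 146 genes, and limma voom 10, 11 and 14. Among the 9, DESeq2 called Cyp26a1 in MHCII-low mTEC, where the KO mean was at least 116-fold above Control (104 within the early set, and 0.747 within the late set, which gives no direction; 75.7 without KO replicate 2). Apart from Crabp2 and this Cyp26a1 comparison, whose Control group had no count, 4 fitted folds pointed up in KO by more than 0.7 (log2). These were Aldh1a1 in MHCII-high mTEC (0.75, SE 2.27), and Aldh1a3 (1.29, SE 1.81), Rdh10 (1.12, SE 1.54) and Crabp1 (1.05, SE 1.87) in MHCII-low mTEC. The Aldh1a3 value turned to -0.37 without MHCII-low KO replicate 4, that of Crabp1 to -1.35 without KO replicate 3, and that of Rdh10 to -0.04 in the early set. Another 6 pointed down by as much: Aldh1a1 in cTEC (-0.75, SE 2.04) and MHCII-low mTEC (-0.82, SE 2.17), Aldh1a3 in cTEC (-0.78, SE 1.59), Crabp1 in MHCII-high mTEC (-1.48, SE 1.74), and Rarb in MHCII-low (-2.34, SE 2.15) and MHCII-high mTEC (-3.05, SE 2.19). Of these, the 3 values for Aldh1a1 and Aldh1a3 and that for Crabp1 were smaller than their standard errors, and the Rarb value in MHCII-low mTEC turned to 1.64 without Control replicate 1. Against the Ski flox Control libraries, which number 2 a subset and are all late, 0.0% of genes were called in each subset, with 1137, 1410 and 726 genes at an unadjusted p under 0.05. KO effects did not differ by a call between subsets either, with 0.0% of genes called for each of the 3 differences (1701, 1673 and 1421 at an unadjusted p under 0.05).

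The receptor gene Rarb (ENSMUSG00000017491, chromosome 14, 16430839 to 16819156, minus strand) was near the limit of detection, with counts in 11 of 40 libraries and at most 11.9 CPM. The counts were in 2 of 5 cTEC, 2 of 4 MHCII-low and 3 of 4 MHCII-high Control libraries, in 1, 1 and 2 of 7 KO libraries, and in none of the 6 Ski flox Control libraries. Its exons overlap those of Top2b, on the other strand, and Top2b ranged from 29.4 to 212 CPM. The library chemistry does not mark strand, so these few Rarb counts are uncertain. Although Rarb and Cyp26a1 both carry the DR5 printed above, their levels were unlike: 12 of 13 MHCII-high libraries had Cyp26a1 at 10 CPM or more and 1 had Rarb at that level.

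Scaled by exon length so that genes can be compared, the mean level in MHCII-high mTEC was highest for Crabp1, at 327 CPM per kilobase, then Cyp26a1 at 56.3 and Crabp2 at 47.3. The others followed at 12.3 for Aldh1a3, 11.8 for Aldh1a2, 10.1 for Dhrs3, 9.58 for Rdh10, 1.89 for Aldh1a1 and 0.329 for Rarb. In cTEC the order was led by Aldh1a2 at 18.9 and Dhrs3 at 14.1 CPM per kilobase, with Crabp2 at 4.999, Aldh1a1 at 3.66, Rdh10 at 2.12, Aldh1a3 at 1.63 and Rarb at 0.275. MHCII-low mTEC had Crabp1 at 115, Crabp2 at 24.8 and Dhrs3 at 13.1, with Cyp26a1 at 5.72, Rdh10 at 5.66, Aldh1a3 at 3.68 and Aldh1a2 at 3.39. A few libraries set several of these means, since 1 library held 67.0% of the summed Crabp2 level of MHCII-high mTEC and 53.2% of that of cTEC.

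Across the 40 libraries, log2(CPM + 1) of Crabp1 went with that of Aldh1a3 (Pearson r = 0.71) and Cyp26a1 (r = 0.70), and that of Cyp26a1 with Aldh1a3 (r = 0.67). After subtracting group means these became 0.47, 0.18 and 0.37. The libraries share subset, set and depth, so these values are a description. The protein-coding genes most like Crabp1 over the 40 libraries were Gpx6 (r = 0.90), Cpne4 (0.89) and Epb42 (0.88), with medians of 67.0, 47.6 and 18.3 CPM in MHCII-high mTEC and 0 in cTEC. For Cyp26a1 they were D830030K20Rik (0.90), Stra8 (0.88) and Nsmce1 (0.86). Aldh1a3 was most like Tulp2 (0.80), Tmem158 and Arhgap44 (both 0.79), and Rdh10 like Atp6v0e2 (0.78), Cpd and Unc5c (both 0.77). Dhrs3 had Smc3 and Irf3 (both 0.73) and Abhd4 (0.72). The closest for Crabp2 (Il17re, 0.64), Rarb (Tsku, 0.64), Aldh1a1 (Actn4, 0.62) and Aldh1a2 (Serpinc1, 0.59) were weaker.

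Stra8, a gene known to be induced by retinoic acid in germ cells, was 1 of the 3 genes named above for the highest correlation with Cyp26a1. The high correlation is thus set by that choice and is a description. Stra8 was counted in 23 libraries and Cyp26a1 in 16, both in 15 and neither in 16. Its level was 7.42 to 91.9 CPM in the 13 MHCII-high libraries and 0 to 1.82 in the 14 cTEC libraries. Among the 26 medullary libraries alone the correlation with Cyp26a1 was 0.83. These libraries still mix MHCII-low and MHCII-high mTEC, with medians of 1.22 and 27.7 CPM for Stra8 and 0 and 88.2 CPM for Cyp26a1. No value after subtracting group means is given for this pair.

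**Figure D4:**
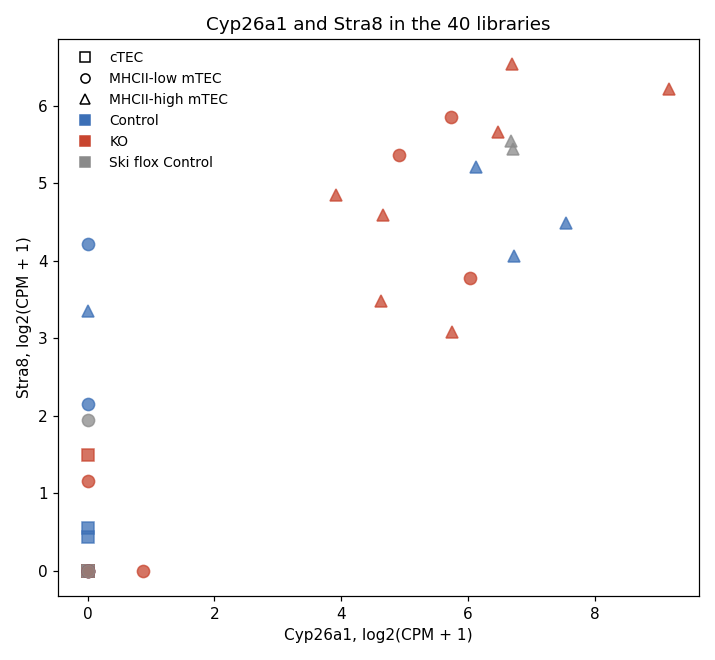
Each symbol is a library, with Cyp26a1 on the horizontal and Stra8 on the vertical axis, both as log2(CPM + 1), shaped by subset and coloured by genotype. All cTEC libraries lie at 0 for Cyp26a1, and the 15 libraries with both genes are medullary.

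The surrounding pathway was read from a list of 62 other retinoid genes, 58 of which could be tested. None was called between subsets among Control libraries or between KO and Control in any subset by edgeR, with 11, 16 and 5 of them at an unadjusted p under 0.05 for MHCII-low over cTEC, MHCII-high over cTEC and MHCII-high over MHCII-low, and 8, 1 and 1 for KO against Control in cTEC, MHCII-low and MHCII-high mTEC. DESeq2 called 8, 10 and 0, and then 4, 0 and 0, and limma voom 1, 9 and 0, and then 0, 0 and 0. The median log2 fold change of the 58 genes was 0.51 for MHCII-high over cTEC in Control libraries, where it was 0.25 over all genes tested, and 0.35 against 0.28 in KO libraries. For MHCII-low over cTEC it was 0.76 against 0.14 in Control and 0.79 against 0.25 in KO libraries, and for MHCII-high over MHCII-low mTEC 0.12 against 0.04 and -0.20 against 0. The 2 most abundant genes of the list were Fabp5, a fatty acid and retinoic acid carrier, at 1073 ± 319.9 CPM (SD, n = 5) in cTEC and 1536 ± 332 (SD, n = 4) in MHCII-high Control libraries (log2 fold change 0.52, SE 0.40, edgeR adjusted p = 0.547), and Ncor1, a corepressor that unliganded retinoic acid receptors recruit, at 277 ± 91.3 (n = 5) and 211 ± 29.1 (n = 4) (log2 fold change -0.39, SE 0.33, edgeR adjusted p = 0.593). In KO libraries Fabp5 was 1183 ± 462 in cTEC and 1748 ± 483 in MHCII-high mTEC (SD, n = 7; edgeR adjusted p = 0.238).

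More genes were called among KO libraries, which number 7 a subset, both in this list and over all genes. Over all genes the share was 14.7% against 1.11% in Control libraries for MHCII-high mTEC over cTEC. For MHCII-low mTEC over cTEC it was 5.68% against 0.773%. Between MHCII-high mTEC and cTEC 11 of 58 genes passed, 10 higher and 1 lower, or 19.0% against 14.7% of all genes. Between MHCII-low mTEC and cTEC 8 passed, 7 higher and 1 lower, or 13.8% against 5.68%, and none passed between the medullary subsets. Of the 7 higher, Adh7, Adh4 and Rbp2 reached 10 CPM in 1 MHCII-low KO library each (98.7, 30.3 and 79.8 CPM; medians 0.174, 0 and 0). Adh1, Stra8, Lrat and Ret reached it in 7, 3, 2 and 0 of the 7 libraries. MHCII-low KO replicate 3 was the only medullary library whose loss alone ended the Adh4 and Adh7 calls. The following genes were picked after their values were seen. Adh1, an alcohol dehydrogenase that oxidises retinol, was called in both comparisons. It was at 0 to 7.66 CPM (median 0) in cTEC KO, 13.2 to 382 (median 41.3) in MHCII-low KO and 0 to 219 (median 33.1) in MHCII-high KO libraries. Any count, which is all that lying above the cTEC KO median of 0 requires, was found in 7 and 6 of 7 medullary KO libraries. The log2 fold change of Adh1 over cTEC was 6.07 (SE 1.37, edgeR adjusted p = 0.00962) for MHCII-low cells and 5.77 (SE 1.35, edgeR adjusted p = 0.00767) for MHCII-high cells. In Control libraries, where no such difference was called, cTEC had Adh1 at 10.7, 7.61, 9.09, 49.1 and 36.5 CPM.

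Stra8 was higher in MHCII-high mTEC than in cTEC among KO libraries by 7.23 on the log2 scale (SE 1.76, edgeR adjusted p = 0.0101), from at most 1.82 CPM to 7.42 or more in all 7. Rarres1, named for its response to retinoids, was 4.64 higher (SE 1.39, edgeR adjusted p = 0.0273), at 63.1 to 367 CPM against 0 to 30.6. Lrat, which stores retinol as its ester, had no count in any cTEC library and 0 to 19.3 CPM in MHCII-high KO libraries, at least 61.5-fold more. Ret, a receptor tyrosine kinase listed here as a retinoic acid target, and Adh4 and Aldh1a7 also had no count in cTEC KO libraries. Their bounds, for counting error only, were 22-fold, 88.5-fold and 308-fold, with counts in 6, 6 and 5 of the 7 MHCII-high KO libraries. The calls of these 7 genes between MHCII-high mTEC and cTEC held when any one of the 14 libraries was left out. The other 4, Adh7, Aldh8a1, Rdh1 and the lower Adh5, each lost theirs without at least 8 different libraries in turn. For MHCII-low mTEC over cTEC the call of Adh1 held in all 14 refits and those of Stra8, Lrat, Ret, Adh4, Adh7, Rbp2 and Cyp26b1 did not. Cyp26b1, which like Cyp26a1 clears retinoic acid, had the reverse pattern there, at 0 in all 7 MHCII-low KO libraries and at up to 9.05 CPM in 4 of 7 cTEC KO libraries, at least 44.8-fold lower.

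**Figure D5:**
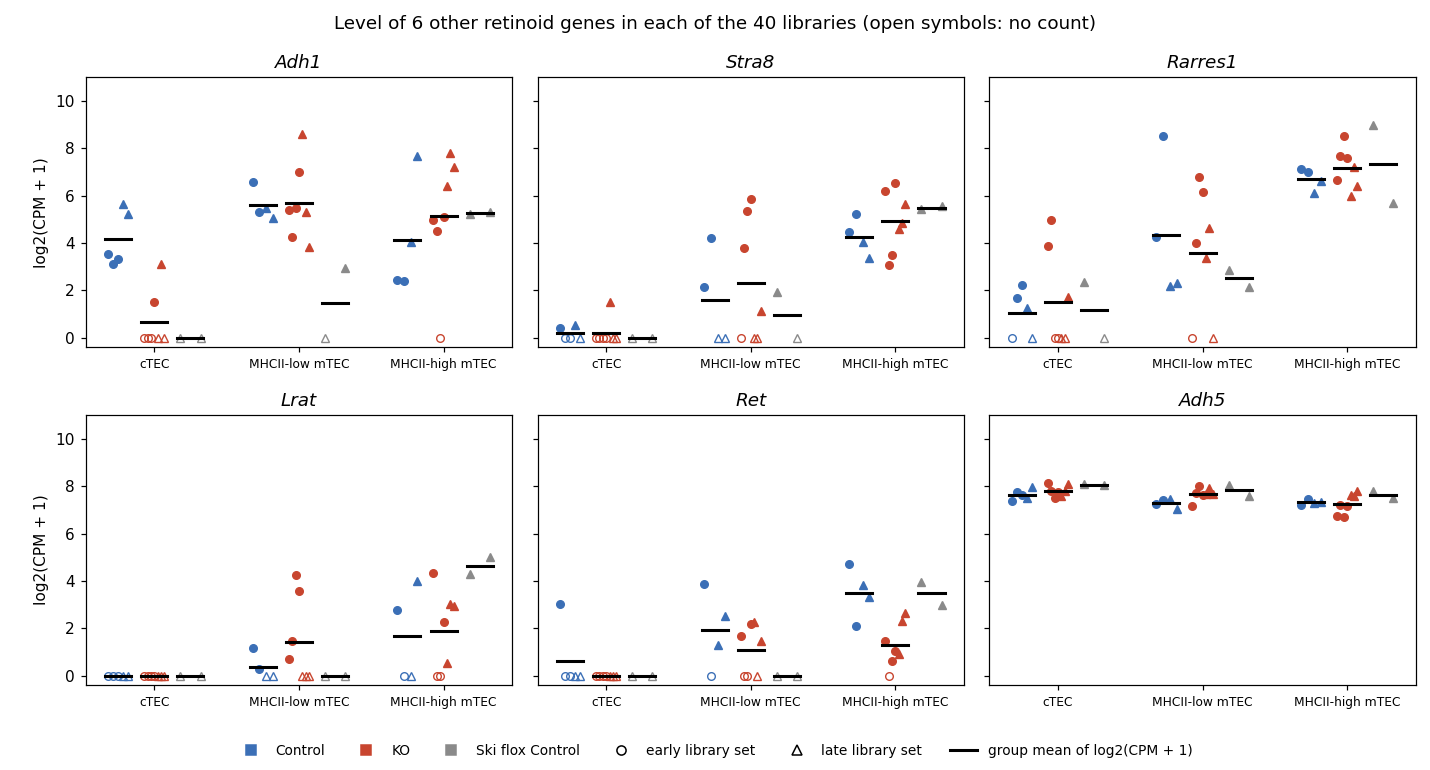
Each panel plots one of 6 other retinoid genes, picked after their values were seen, as log2(CPM + 1) in each library by subset, genotype and library set; open symbols have no count and bars are group means. Stra8 and Rarres1 are higher in MHCII-high mTEC than in cTEC, Lrat has no count in cTEC, and Adh5 lies between 103.7 and 279.5 CPM throughout.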

How the data were processed

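Libraries of 200 sorted cells were made with a SMART-Seq v4 and Nextera XT workflow, per the labels' protocols, which does not mark strand. The authors deposited one table of raw read counts per Ensembl gene, and the submitters' processing notes name HTSeq 0.4.1, SAMtools 1.2, Picard 1.134, FastQC 0.11.3 and the GRCm38 build; no aligner is named there. Symbols were taken from GENCODE M21 for 53360 of 53465 IDs. The genes and lists were chosen with earlier results of these data known. Libraries under 100000 counts were left out, leaving 40 of 42. Counts were fitted in edgeR 4.0.16 (R 4.3.3; quasi-likelihood test, TMM, 9 group means) over 23040 genes passing filterByExpr (minimum count 10, minimum total 15), with Benjamini-Hochberg adjustment and a threshold of 0.05. The biological coefficient of variation was 1.4. The fit was tested on simulated data. Correlations used log2(CPM + 1). Named genes were the 9, the most abundant other retinoid genes where none passed with a median of 10 CPM, and the 3 most correlated protein-coding genes for each. Alternatives were RLE factors, other filters, all 42 libraries, a set covariate, each set alone, only the groups compared, a block of consecutive library numbers, each library left out, limma 3.58.1 voom and DESeq2 1.42.0.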

Additional observations from a re-analysis of the deposited data

Results flagged for a closer look

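Of 49 groups of 4 to 10 libraries examined, 5 held a library whose gap to its nearest neighbour was a large enough share of the group's range to pass Dixon's 95% limit on the log2(CPM + 1) scale. That limit flags about 1 in 20 groups of normally distributed values. The rate does not hold for groups with many libraries at 0, and a group with a single library above 0 always passes. Dhrs3 was at 0.4155 CPM in MHCII-low KO replicate 3, where the other 6 libraries of the group lay between 13.39 and 82.52 CPM; this library also had the highest Crabp1 and Crabp2 levels of its subset. Rdh10 was at 0.2673 CPM in MHCII-high KO replicate 3, where the other 6 lay between 15.44 and 74.94 CPM; the same library held the highest Crabp2 level of all, 544.8 CPM. Rarb was at 11.32 CPM in cTEC KO replicate 1 and at 2.014 CPM in MHCII-low KO replicate 5, with the other 6 libraries of each group at 0. That cTEC library also had the highest Crabp2 level (49.2 CPM) and mesenchyme marker sum (6552 CPM) of cTEC, whose part was not tested. Rarb was also at 6.141 CPM in MHCII-low Control replicate 1, with the others at 0.226 or 0.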

How the results depend on the processing

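Library numbers run in 14 triplets, 1 library of each subset with the same genotype, which no label says share an animal. Deviations from the group means correlated above 0.1 in 14 of 39 pairs within triplets (median r = 0.0788). Among other pairs of the same genotype and set it was 13 of 76 (median r = 0.0252). Pairs within triplets were thus more alike by both measures. Of 39 libraries, 21 correlated best with a library of their own triplet, and the number to expect without pairing was not computed. Whether a triplet shares an animal was not tested, and the main fit does not include pairing. The triplet was also fitted as a replicate block, added after the data were seen. The members called then became 1 (Crabp1) of 2 for Control MHCII-high mTEC over cTEC and 0 of 2 for KO MHCII-low mTEC over cTEC. The total of other retinoid genes called went from 8 to 2 for KO MHCII-low and from 11 to 7 for KO MHCII-high mTEC over cTEC. Among the 8 only Adh1 kept its call. Among the 11 Adh1, Adh4, Aldh1a7, Stra8, Rarres1 and Ret kept theirs. The 8 other counts over the 6 subset comparisons equalled those without the block. KO against Control cannot be estimated with this block. Among the 9 genes, the 2 called between MHCII-high mTEC and cTEC in Control libraries became 0 in the early set, 0 in the late set and 1 in a fit of only the groups compared, and ranged from 0 to 2 with one library left out. In KO libraries the 2 called between MHCII-low mTEC and cTEC became 0 in the early set, the late set, the fit of only the groups compared and limma voom, and the 2 between MHCII-high mTEC and cTEC became 1 when either set was fitted alone. DESeq2 called 1 gene, against 0, in Control MHCII-low mTEC over cTEC, in Control MHCII-high over MHCII-low mTEC and in KO over Control for MHCII-low mTEC; limma voom called 1, against 0, in MHCII-high over MHCII-low mTEC in Control and in KO libraries. For the 58 other retinoid genes, the total called is given for each refit and can include genes outside the original 8 or 11. In KO MHCII-low mTEC over cTEC the total went from 8 to 4 with no filter, 3 with a filter of 10 CPM in 5 libraries, 4 with a set covariate, 0 in the early set, 1 in the late set, 0 in the fit of only the groups compared and 3 with limma voom, and to 1 to 8 with 1 library left out. Of the 8, limma voom kept the call of Adh1 alone, and the gene called in the late set was not among them. In KO MHCII-high mTEC over cTEC the total went from 11 to 7 with no filter, 7 with the 10 CPM filter, 1 in the early set, 3 in the late set and 1 in the fit of only the groups compared, and to 7 to 11 with 1 library left out. Where 0 were called, Control MHCII-low mTEC over cTEC gave 2 in the late set, 1 with limma voom and 8 with DESeq2. Control MHCII-high mTEC over cTEC gave 1 with the 10 CPM filter, 1 with all 42 libraries, 3 with a set covariate, 3 with only the groups compared, 9 with limma voom and 10 with DESeq2. MHCII-high over MHCII-low mTEC gave 1 in the late set in Control and in KO libraries and 1 with limma voom in KO libraries, and KO over Control in cTEC gave 4 with DESeq2. Fewer libraries enter the single-set fits; the cause of the other shifts was not tested. Of 1468 refitted fold changes of the 9 genes, 68 moved by more than 1 SD and 127 changed sign, 25 of them with a reported fold past 1 on the log2 scale. Counts near 0 in libraries of 200 cells limit what could be detected for Rarb and Aldh1a1.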
